A study of Homo sapiens with 2 samples.

Results

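The adhesion G protein-coupled receptors (GPCRs) examined here are the genes whose name in the deposited tables starts with ADGR. These were 29 of the 20263 genes, found in both tables, and 11 of the 29 reached 1 CPM (reads counted for the gene, scaled by library depth) in at least 1 library. Expression was measured by RNA sequencing in Cal-27, an established line of tongue squamous carcinoma. The control culture carried a stably transduced scrambled shRNA and the other culture a stably transduced shRNA, in the GV-248 vector, that targets the nuclear kinase gene HIPK2. Both were grown in the same medium, and each group had 1 library, so no difference below has a replicate check and no p-value is given. Values thus compare libraries, not conditions. Members were chosen by gene name, and the family was selected on the CPM ratio of ADGRL1 between these same libraries, so all ratios below are descriptions.

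Adhesion GPCRs are built from a long extracellular region with adhesion modules, a GAIN domain and a bundle of membrane helices. Many cut themselves at a site within the GAIN domain and keep the pieces together, and the stalk left on the membrane piece can act as a tethered agonist. They bind matrix proteins or proteins on neighbouring cells, couple to heterotrimeric G proteins, and several of them are made by epithelia and carcinomas.

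The control held 28064923 counts in total and the library labelled HIPK2 shRNA held 26450251. The targeted gene did not give a uniform check of the label: HIPK2 had 110 and 218 counts, but 1.63 and 0.873 in the deposited TPM, a level scaled by transcript length. The direction of any difference therefore refers to the library as labelled. All 10 squamous epithelial markers were detected at 1 CPM, with summed levels of 4653 and 3997 CPM, mostly KRT5 and SFN. Among them KRT14 went from 318 to 44 counts, a log2 ratio of -2.26, and CDH1 from 5049 to 2361, a log2 ratio of -1.07, both past 2-fold lower. Of all genes at 1 CPM, 2.87% were past 2-fold lower. The other squamous markers were inside 2-fold, with DSG3 at 0.38, KRT16 at 0.13, TP63 at 0.06 and KRT6A at -0.11. KRT5 was at -0.12, KRT17 at -0.31, SFN at -0.36 and EPCAM at -0.53. Of 9 leukocyte markers, PTPRC, CD3E, MS4A1 and CD33 had 0 counts in both libraries, and the list summed to 38.2 and 34.7 CPM, mostly CD68. The endothelial markers PECAM1, KDR and TEK also had 0 counts in both, while CDH5 had 1513 and 740, VWF 25 and 31 and CLDN5 5 and 4. Fibroblast markers summed to 18.2 and 21.5 CPM, mostly COL1A1 and COL1A2, and neural markers to 36.4 and 28.7 CPM, mostly TUBB3 and MBP.

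Reads of ADGRE2 and ADGRE5 cannot always be told apart, and the sequences below show why values of ADGRE2 carry that limit. In GENCODE 29 the coding parts of the longest transcripts of ADGRE2 and ADGRE5 hold an identical run of 355 bases, longer than a read of 150 bp. It spans coding bases 520 to 874 of ADGRE2 and 511 to 865 of ADGRE5, and both genes lie on chromosome 19. Both ends of the run are printed 5′ to 3′ in the sense of the transcript, with 40 identical bases in capitals and 30 flanking bases in lower case.
ADGRE2, start of the run: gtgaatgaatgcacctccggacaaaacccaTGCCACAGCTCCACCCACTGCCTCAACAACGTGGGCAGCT
ADGRE5, start of the run: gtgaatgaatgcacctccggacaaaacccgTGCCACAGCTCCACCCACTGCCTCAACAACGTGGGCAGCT
ADGRE2, end of the run: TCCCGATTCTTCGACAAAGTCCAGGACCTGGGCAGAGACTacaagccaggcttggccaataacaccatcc
ADGRE5, end of the run: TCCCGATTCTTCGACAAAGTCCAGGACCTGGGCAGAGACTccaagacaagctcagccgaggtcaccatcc
Of the 50-base words in all ADGRE2 transcripts, 7.63% also occur in ADGRE5, and 12.3% of the words of ADGRE5 occur in ADGRE2.

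ADGRL1 was the single member past 2-fold. The call is a rule of size, a log2 ratio of CPM + 1 of at least 1 or at most -1. By that rule 1 of the 11 members at 1 CPM was higher and 0 lower relative to the control. With 1 library a group, the spread between replicates that an edgeR test needs could not be estimated, and no test was run. Of the 11813 genes at 1 CPM, 3.26% were past 2-fold higher and 2.87% lower. The log2 ratio was above 0 in 8 members and below 0 in 3, with a median of 0.16 against 0.00 over all genes at 1 CPM. Of the 11, 6 differed by less than 1.5-fold, as did 79.4% of all genes at 1 CPM. Brackets below hold 95% exact intervals of the ratio, which cover counting error only. They lay above 1 for 4 members, below 1 for 3 and around 1 for 4, while over all genes at 1 CPM 32.7% lay above and 34.6% below.

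ADGRL1 (ENSG00000072071, chromosome 19, 14147743 to 14206187, minus strand, GRCh38) encodes latrophilin-1, a receptor of synapses that binds alpha-latrotoxin, teneurins and FLRT proteins. It had 28 counts in the control against 486 in the library labelled HIPK2 shRNA, or 1.02 and 18.0 CPM. The control level lay just above the 1 CPM limit, and the libraries do not overlap within counting error. In bulk RNA, fewer cells that make a transcript and less of it per cell cannot be told apart. The CPM ratio was 17.6 (12 to 26.8), and in deposited TPM the gene went from 0.181 to 5.30, a ratio of 29.3. By log2 ratio ADGRL1 ranked at place 10 of the 11813 genes at 1 CPM. An antisense gene, AC022098.1, overlaps 473 exon bases of ADGRL1, 5.57% of them. It is not among the genes counted in the tables, the sources used here do not give the strand setting of the counting, and its part in the ratio was not tested. The same limit holds for ADGRE5, where AC008569.1 overlaps 252 exon bases (4.68%), and for ADGRE1, where AC020895.2 overlaps 163 (4.40%). Both lie on the opposite strand and were not counted either.

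The other latrophilins were low. ADGRL2, which binds the same classes of partner, had 33 and 71 counts, 1.2 and 2.62 CPM, a ratio of 2.18 (1.42 to 3.40). Its log2 ratio with the pseudocount was 0.72, inside the 2-fold limit, and its TPM was 0.263 and 0.623. ADGRL3 had 4 and 6 counts. ADGRL4, a receptor known from endothelium, had 0 counts in both libraries. Per length, ADGRL1 lay below ADGRL2 in the control (0.181 and 0.263 TPM) and above it in the other library (5.30 and 0.623 TPM). The control order is not settled, as the exact Poisson intervals of these levels, 0.678 to 1.48 and 0.828 to 1.69 CPM, overlap. The TPM of ADGRL1 also rests on a transcript length of 7888 bases in the control but 5074 in the other library, as described below.

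ADGRG1, ADGRE5 and ADGRF1 made up most of the family's reads. They held 87.2% of all counts of the 29 genes in the control against 82.6% in the library labelled HIPK2 shRNA, and by TPM 87.0% and 87.5%. ADGRG1 (GPR56), a receptor for collagen III and transglutaminase 2 that signals through G12/13 to RHOA, was the most abundant by TPM, at 54.8 and 63.8. It had 3507 and 3841 counts, a ratio of 1.11 (1.06 to 1.16). ADGRE5, the CD97 antigen, which binds CD55 and THY1, had 2210 and 2695 counts and 37.7 and 51.2 TPM. Its CPM ratio was 1.24 (1.17 to 1.31). Both genes were thus slightly higher in the library labelled HIPK2 shRNA in both units, by less than 1.5-fold.

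The ADGRF genes at 1 CPM were both lower in that library. ADGRF1 (GPR110; chromosome 6, 46997703 to 47042363, minus strand), a receptor that responds to the lipid synaptamide, had 1182 and 614 counts, or 43.1 and 22.7 CPM. It was 1.90-fold lower (1.72 to 2.1), and 1.62-fold lower in TPM, from 15.5 to 9.62. With a log2 ratio of -0.90 it lay closest to the 2-fold limit among the members inside it. ADGRF4 (GPR115), an epithelial receptor needed for enamel mineralization in mice, had 56 and 19 counts, 2.04 and 0.702 CPM. It was 2.91-fold lower (1.70 to 5.18) as a plain ratio, but with the pseudocount the log2 ratio was -0.84. ADGRF4 was the single member at 1 CPM in the control alone. The rest of the subfamily was below 1 CPM: ADGRF5, which keeps lung surfactant in balance, had 14 and 4 counts, ADGRF2 had 5 and 8, and ADGRF3 had 5 in each. ADGRF5, ADGRF1, ADGRF2 and ADGRF4 lie in that order on chromosome 6. ADGRF5, with a ratio of 0.290 (0.0694 to 0.922), is the direct neighbour of ADGRF1, 42760 bases away. On the other side of ADGRF1, the span of ADGRF2 (47656436 to 47697797) overlaps that of ADGRF4 (47685864 to 47722021). ADGRF2 and ADGRF4 share 77 exon bases on the same strand.

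The sequence before a RefSeq start of each ADGRF gene at 1 CPM is shown because both were lower in that library. It is taken from the RefSeq promoter table (GRCh38.p14), which matched ADGRF1 and ADGRF4. Windows of 250 bases before the RefSeq start were searched on both strands for TGANTCA (AP-1), TATAAA and GGAATG (TEAD), and matches are in capitals. The part of the window outside annotated exons of the gene is printed, 219 bases at chr6:47042364-47042582 (minus strand) for ADGRF1 and 223 bases at chr6:47698330-47698552 (plus strand) for ADGRF4. The ADGRF4 window lies inside the gene as counted, which starts at 47685864, so it is not the sequence before that start.
ADGRF1: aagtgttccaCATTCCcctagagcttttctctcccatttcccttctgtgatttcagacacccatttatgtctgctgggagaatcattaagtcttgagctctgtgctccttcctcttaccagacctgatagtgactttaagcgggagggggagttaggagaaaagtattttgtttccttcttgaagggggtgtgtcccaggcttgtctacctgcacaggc
ADGRF4: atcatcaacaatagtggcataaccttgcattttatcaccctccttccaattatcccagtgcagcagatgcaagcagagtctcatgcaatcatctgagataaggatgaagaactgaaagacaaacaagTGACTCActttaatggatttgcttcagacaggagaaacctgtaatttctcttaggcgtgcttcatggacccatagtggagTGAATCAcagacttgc
The ADGRF4 window held 2 matches of TGANTCA, which 6.57% of 35116 such windows hold at least once, and ADGRF1 held 1 match of GGAATG, which 11.9% hold. TATAAA, present in 10.7% of windows, was in neither. The windows had 42.0% (ADGRF4) and 47.6% (ADGRF1) G and C, against a median of 58.0% over all windows, and 1 and 2 CG dinucleotides against a median of 11. Such matches also occurred before RefSeq starts of members higher in that library. An ADGRG1 window held 2 matches of TGANTCA, and an ADGRL2 window held 1 match of TATAAA and 1 of GGAATG. That ADGRG1 window begins inside an annotated exon of the gene. The other windows of these genes, and those of ADGRA3, ADGRB2, ADGRG6 and ADGRV1, held none. ADGRL1, ADGRE2 and ADGRE5 had no RefSeq window and were not searched. These matches are descriptions of letters and not binding sites.

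**Figure D1:**
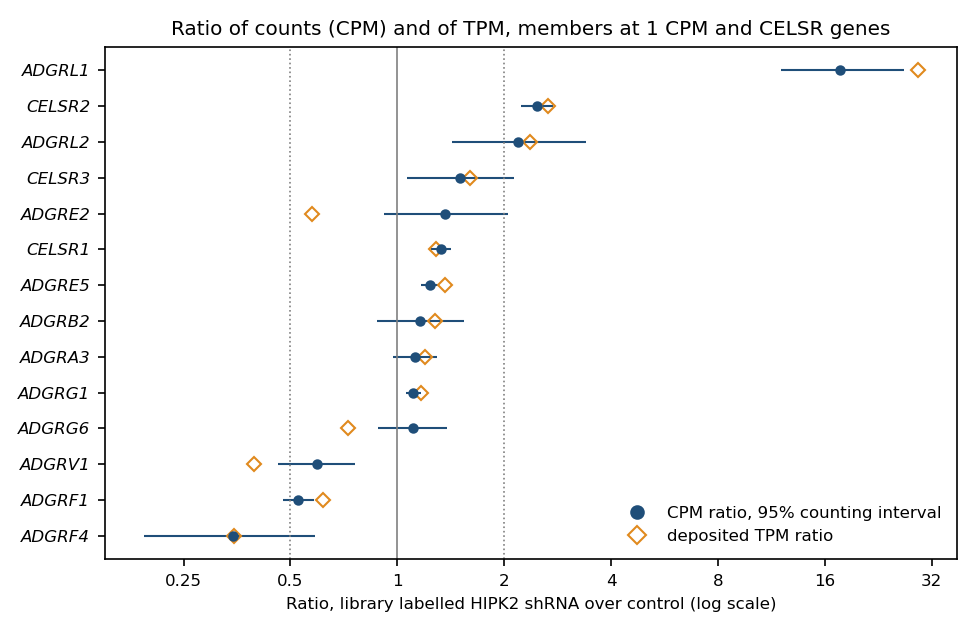
Ratio of the library labelled HIPK2 shRNA over the control on a log axis for the 11 members at 1 CPM and the 3 CELSR genes; circles are CPM ratios with 95% counting intervals, open diamonds are ratios of the deposited TPM, and dotted lines mark 2-fold. ADGRL1 stands far to the right in both units, and for ADGRE2 and ADGRG6 the circle and the diamond lie on opposite sides of 1.

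ADGRE2 and ADGRG6 went in opposite directions in counts and in TPM. ADGRE2 (EMR2), a receptor of myeloid cells that binds chondroitin sulfate, had 46 and 62 counts, a ratio of 1.37 (0.918 to 2.05), but its TPM was 0.931 and 0.536. Besides the run shared with ADGRE5, 15.7% of its exon bases overlap ZNF333 on the opposite strand, which had 48 and 70 counts, a ratio of 1.48 (1.01 to 2.18). The ratios of ADGRE2, ADGRE5 and ZNF333 all lay between 1.24 and 1.48, and the exchange of reads between them was not tested. ADGRG6 (GPR126), a receptor needed for myelination by Schwann cells, had 158 and 172 counts, a ratio of 1.10 (0.884 to 1.38), and 1.87 and 1.36 TPM. Of all genes at 1 CPM, 12.2% had CPM and TPM log2 ratios of opposite sign, and 2 of the 11 members did.

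ADGRV1, ADGRA3 and ADGRB2 complete the members at 1 CPM. ADGRV1 (chromosome 5, 90529344 to 91164437, plus strand), the giant receptor of hair-cell stereocilia that is mutated in a form of Usher syndrome, had 178 and 104 counts. It was 1.69-fold lower (1.32 to 2.17) in CPM and 2.53-fold lower in TPM, at 6.53 and 2.58. In TPM its log2 ratio of -1.07 passed the 2-fold limit, the single such member on the lower side, with ADGRL1 alone on the higher side. Of all genes at 1 CPM, 2.21% were past that limit lower and 2.69% higher in TPM. ADGRA3 (GPR125), an orphan receptor, had 370 and 410 counts, a ratio of 1.12 (0.974 to 1.30). ADGRB2, a relative of brain-specific angiogenesis inhibitor 1, had 97 and 111 counts, a ratio of 1.16 (0.875 to 1.54). The intervals of ADGRA3 and ADGRB2 included 1, as did those of ADGRE2 and ADGRG6.

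The order of levels is given in TPM, which is per length. In the control TPM was highest for ADGRG1, then ADGRE5, ADGRF1, ADGRV1 at 6.53 and ADGRA3 at 4.21. In the library labelled HIPK2 shRNA the first 3 places were the same, followed by ADGRL1 at 5.30, ADGRA3 at 5.05 and ADGRV1 at 2.58. ADGRG6 came next in both libraries, at 1.87 and 1.36. Below it ADGRE2, ADGRB2 and ADGRF4 lay close together in the control, between 0.902 and 0.931, and apart in the other library, at 0.536, 1.16 and 0.313. The place of ADGRV1 rests on a length of 1388 and 2232 bases, far below its full transcript of 19554 bases, as described below. In CPM, ADGRV1 was at 6.49 and 3.84, below ADGRA3 at 13.5 and 15.2. The lengths behind the TPM of ADGRL1, ADGRE2 and ADGRG6 also differed between the libraries. With 1 library a group, the spread around neighbouring places is unknown.

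The TPM of some members rests on a transcript length that differed between the libraries. The count divided by the deposited FPKM, a level per kilobase of transcript gives the length that the authors' values imply, scaled on genes with 1 annotated transcript, of which 98.7% fell within 1.25-fold of their annotated length in each library. The implied length differed at least 1.5-fold in 4 of the 11 members, ADGRE2, ADGRG6, ADGRV1 and ADGRL1, against 4.93% of 11760 genes. ADGRL1 had an implied length of 7888 bases in the control but 5074 in the other library, and its longest annotated transcripts have 7853 and 5610 bases. ADGRE2 went from 2515 to 6399 bases, with annotated transcripts between 551 and 6767, and ADGRG6 from 4298 to 7014, with a longest transcript of 7026. The targeted gene HIPK2, whose TPM also went against its counts, went from 3443 to 13819 bases, with annotated transcripts between 2937 and 15049. Its CPM ratio was 2.01 (1.59 to 2.55).

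ADGRV1 had the largest gap between implied and annotated length. Its implied length was 1388 and 2232 bases, while the full transcript has 19554 bases and a coding length of 18918, and GENCODE 29 lists 38 transcripts of 500 bases and more. Its TPM is therefore computed over less than the full transcript in both libraries. In CPM, which uses no length, ADGRV1 was at 6.49 and 3.84. ADGRA3, ADGRB2, ADGRE5, ADGRG1, ADGRF1, ADGRF4 and ADGRL2 had implied lengths within 1.5-fold of each other in the libraries.

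**Figure D2:**
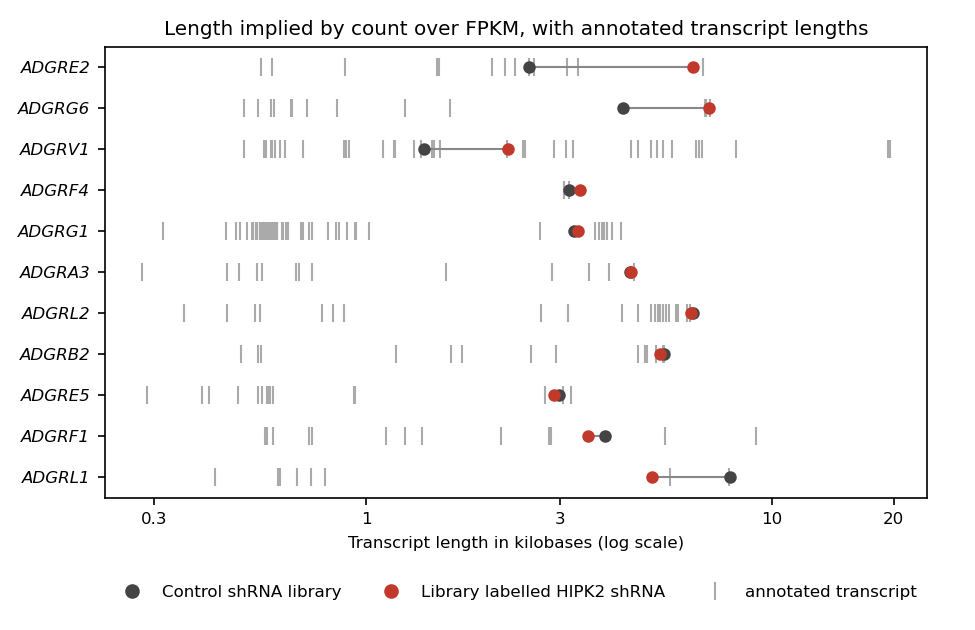
Transcript length implied by count over FPKM, in kilobases on a log axis, for the 11 members at 1 CPM in the control library (grey) and the library labelled HIPK2 shRNA (red), joined by a line; grey ticks are the lengths of annotated transcripts in GENCODE 29. ADGRE2, ADGRG6, ADGRV1 and ADGRL1 have the long lines, and both points of ADGRV1 lie far left of its tick near 20 kilobases.

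The remaining 18 members were below 1 CPM in both libraries. Of these, 7 had 0 counts in both: ADGRA1, ADGRB3, ADGRE3, ADGRG3, ADGRG4, ADGRG7 and ADGRL4. A count of 0, taken to allow 3 counts, allows up to 0.109 CPM (control) or 0.111 CPM (other library), and the exact Poisson intervals plotted for these genes, which leave error on both sides, end at 0.134 and 0.136 CPM. A further 4 had 0 counts in the control alone. ADGRE1, in humans a receptor of eosinophils, had 21 counts in the library labelled HIPK2 shRNA (0.776 CPM), at least 5.28-fold higher by the lower exact 95% limit of the ratio, and was the member closest below the 1 CPM limit. ADGRG2, known from the epididymis, had 9 counts, with a lower limit of 2.0. ADGRG5 had 5 and ADGRD1 had 4 counts, and with lower limits of 0.929 and 0.669 their intervals included 1. ADGRB1 and ADGRD2 had 3 control counts each and 0 in the other library. ADGRA2, the receptor that with RECK relays WNT7 signals in brain vessels, had 9 and 8 counts, and 23.1% of its exon bases overlap BRF2. Among the leukocyte markers, given here beside ADGRE1, ITGAM had 43 and 55 counts, CSF1R 231 and 238, CD14 136 and 88, CD68 634 and 558, LYZ 4 and 0, and the other 4 had 0 in both. Their part in the counts of ADGRE1 was not tested.

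Summed over all 29 genes, the family had 7908 and 8655 counts, or 288 and 320 CPM, a ratio of 1.11 (1.08 to 1.14). ADGRL1 took 0.354% of these counts in the control but 5.62% in the other library. Without ADGRL1 the ratio was 1.05 and without ADGRE5 1.06.

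The seven-pass cadherins CELSR1, CELSR2 and CELSR3, which act in planar cell polarity, belong to the same receptor class under another name. CELSR2 had 525 and 1278 counts, 19.1 and 47.2 CPM, a ratio of 2.47 (2.23 to 2.74), and was past 2-fold higher. CELSR1 had 1564 and 2049 counts, a ratio of 1.33 (1.24 to 1.42), and CELSR3 had 58 and 86, a ratio of 1.5 (1.06 to 2.13). Their implied lengths differed by less than 1.5-fold between the libraries, and all 3 were higher in both units.

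Known partners of the receptors and genes that carry their signal were examined as 7 further lists. With the CELSR genes, 52 of 71 listed genes were at 1 CPM, of which 8 were past 2-fold higher and 1 lower, with a median log2 ratio of 0.14. Over all genes at 1 CPM, 6.13% were past 2-fold in either direction. The lists were chosen with earlier results of these data known, so no excess over that share can be read from them. Of 10 latrophilin partners, 3 were at 1 CPM and 0 past 2-fold (median 0.47): FLRT2 had 16 and 40 counts, TENM3 had 78 and 117, and TENM2 had 290 and 275. The plain ratio of FLRT2 was 2.53 (1.39 to 4.85), but with the pseudocount its log2 ratio was 0.65. Below 1 CPM, TENM4 had 23 and 4 counts, 5.67-fold lower (1.94 to 22.6), FLRT1 had 12 and 18, FLRT3 had 0 and 6, NRXN2 had 2 and 4, and TENM1 and NRXN3 had 0 in both. Of 6 ADGRE5 partners, 4 were at 1 CPM and 0 past 2-fold (median 0.03), with CD55, the complement regulator bound by ADGRE5, 1.29-fold lower (1.12 to 1.49) and the integrin subunit ITGA5 1.2 times higher (1.15 to 1.25). ITGAV and ITGB1 had log2 ratios of 0.15 and -0.08.

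Of 8 partners of ADGRG1 and ADGRG6, 6 were at 1 CPM and 1 was past 2-fold (median 0.12). TGM2, the transglutaminase that binds ADGRG1, had 233 and 1899 counts, a ratio of 8.26 (7.21 to 9.51). CD9, a tetraspanin, was 1.78-fold lower (1.70 to 1.86), and PRNP, the prion protein that binds ADGRG6, 1.95-fold lower (1.82 to 2.08). COL4A2 had a log2 ratio of 0.22, and COL3A1, the collagen ligand of ADGRG1, had 4 and 0 counts. Of 18 partners of other members, 11 were at 1 CPM, with 3 past 2-fold higher and 0 lower (median 0.31). These 3 were the Nogo receptor relative RTN4RL1, with 7 and 72 counts, C1QL1, a secreted ligand of ADGRB3, with 25 and 102, and WHRN, a scaffold that binds ADGRV1 in stereocilia, with 66 and 185. WNT7A, a ligand relayed by ADGRA2, was 1.78-fold lower (1.65 to 1.92). Beside these partners, ADGRB3 had 0 counts in both libraries, and the CPM ratio was 0.592 for ADGRV1 and 1.11 for ADGRG1.

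Among 12 G protein alpha subunits, 11 were at 1 CPM, with 3 past 2-fold higher and 0 lower (median 0.30). GNA12, which couples receptors to RHOA, had 783 and 7850 counts, a log2 ratio of 3.30. GNAO1 had 50 and 275 counts, a ratio of 5.58 (4.11 to 7.70), and GNAZ had 0 and 110, at least 29.7-fold higher by the lower exact 95% limit. GNAI2 had a log2 ratio of 0.72. Of 8 effectors downstream of G12/13, 0 were past 2-fold (median -0.02), with ROCK2 at a log2 ratio of 0.65, RHOB at -0.48, ARHGEF11 at 0.34 and RHOA at -0.23. Of 6 receptor kinases and arrestins, 1 was past 2-fold lower (median 0.00). It was GRK5, which phosphorylates active receptors, with 244 and 70 counts, 3.44-fold lower (2.63 to 4.55), while ARRB1, GRK2 and GRK3 had log2 ratios of 0.40, 0.38 and -0.18.

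**Figure D3:**
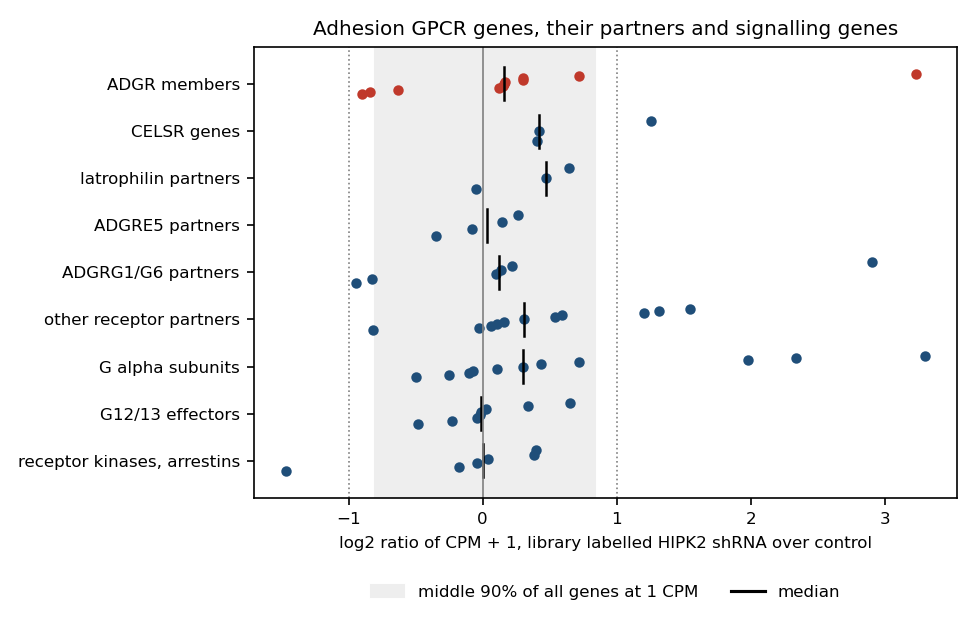
The log2 ratio of CPM + 1 (library labelled HIPK2 shRNA over control) for the 11 ADGR members (red) and the genes at 1 CPM of the 8 lists (blue), with each list's median as a black line and the middle 90% of all genes at 1 CPM, -0.80 to 0.84, in grey. ADGRL1, TGM2 and GNA12 are the points furthest to the right in their rows, and GRK5 is the point furthest to the left.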

How the data were processed

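RNA from 2 Cal-27 cultures was sequenced as 150 bp pairs on an Illumina HiSeq, per the labels. Reads were aligned with TopHat2 2.1.1 to GRCh38, per the submitters' processing notes, and the sources used here give neither the counting tool nor its strand setting. Per the file headers, the authors deposited a count, a TPM and an FPKM per gene. Deposited counts are whole numbers, not normalized, while TPM and FPKM are scaled by transcript length.

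Counts were converted to CPM with TMM factors (edgeR 4.0.16, R 4.3.3; 0.977 and 1.02). Exact Clopper-Pearson intervals came from scipy 1.17.1, and cover counting error only, since reads carried no molecular identifiers. The log2 ratio uses a pseudocount of 1 CPM, which understates low genes. A count of 0 allows 3 counts. Transcripts and exons are from GENCODE 29, where 23 of 29 members had identical start and end, so positions follow the files. Words of 50 bases shared with other genes were counted where they made up 1% or more. Named genes are HIPK2, all ADGR genes, up to 4 genes a list by absolute log2 ratio, and genes overlapping their exons. The latrophilin partners given below 1 CPM, COL3A1, marker genes and neighbouring genes were named after their values were seen. A listed leukocyte marker and a listed partner gene are not reported here. The members and lists were chosen with earlier results of these data known.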

Additional observations from a re-analysis of the deposited data

How the results depend on the processing

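No paired analysis was possible because there was 1 library in a group, and for the same reason no replicate could be left out. The number of members at the expression limit, 11, was 7 at 5 CPM and 8 in TPM. The count past 2-fold higher, 1, became 2 with a pseudocount of 0.1 CPM and at a 1.5-fold limit, 2 with the CELSR genes added, and 0 without the members that share sequence or exons with another gene, since that leaves out ADGRL1. The count past 2-fold lower, 0, became 1 with a pseudocount of 0.1 CPM, 1 in TPM and 3 at a 1.5-fold limit. Other scalings of the counts, no filter, a 5 CPM filter, a pseudocount of 5 CPM and a 4-fold limit left both counts as they were. The median of 0.16 ranged from 0.00 with no filter to 0.23 with the CELSR genes. The ratio of summed levels, 1.11, was 1.16 with total counts alone, 1.17 with upper-quartile factors, 1.15 in TPM, 1.06 without ADGRE5 and 1.05 without ADGRL1. HIPK2, at a log2 ratio of 0.85, was at -0.49 in TPM, which reverses it. The 9 listed partner and signalling genes past 2-fold became 4 with a pseudocount of 5 CPM, 16 at 1.5-fold and 3 at 4-fold. Of 66 log2 ratios of single members under other settings, 57 were classed as the same and 9 as moved. Among those moved was ADGRL1, from 3.23 to 4.01 with a pseudocount of 0.1, 1.93 with one of 5 and 2.42 in TPM. These classes do not say whether a value lay inside its counting interval, which uses no pseudocount. Leaving out members and adding CELSR genes were chosen after the data were seen. Apart from settings that change the genes included, the fold limit or the pseudocount, the cause was not tested. The low members are limited by depth, as a single count is 0.0365 CPM (control) or 0.037 CPM (other library).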

Other observations

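Within 100 kilobases of ADGRL1, 7 other genes are in the tables and 4 were at 1 CPM, with log2 ratios from 0.12 to 0.29 and 0 past 2-fold. They were ASF1B, PRKACA, SAMD1 and IL27RA, and PRKACA, the catalytic subunit of protein kinase A, had 4730 and 5713 counts. The 17.6-fold difference of ADGRL1 was thus not shared by these neighbours. All 7 genes lie past the 3′ end of ADGRL1, and the window held no counted gene on the side of its start. ADGRF1 had no neighbour at 1 CPM in that window, where ADGRF5, with 14 and 4 counts, was the single other gene, and the neighbour of ADGRF4 at 1 CPM, CD2AP, had 198 and 218 counts, a log2 ratio of 0.14. Near ADGRB2, COL16A1 had 933 and 447 counts, a ratio of 0.486 that with the pseudocount lay just inside the 2-fold limit. ADGRE5 and ADGRG1 had 3 neighbours each at 1 CPM, between -0.26 and 0.32.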
